A study of Mus musculus with 14 samples.

Results

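The major histocompatibility complex (MHC) and antigen presentation genes were described across 14 mouse glioblastomas. They were taken as every gene whose symbol on the array begins with H2, the mouse name of the MHC, together with 18 genes of peptide processing and loading that were listed by name. The array carried 53 such genes among 18484 named genes. Of these, 37 had a probe with a detection p-value under 0.05 on at least 3 of the 14 arrays and were measured, among 11786 genes tested. The measured genes comprised 12 class I heavy chain genes, 11 genes of the class I pathway, 2 chaperones of the endoplasmic reticulum, 11 class II genes and H2-Ke6, which carries the prefix but encodes an enzyme and no MHC molecule.

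Type 1 tumours arose in mice carrying Nestin-CreERT2, a tamoxifen-activated Cre recombinase under the promoter of the neural progenitor filament Nestin. Type 2 tumours arose in mice carrying NG2-CreERTM, in which a tamoxifen-activated Cre is driven by the promoter of NG2, a proteoglycan of glial progenitors and pericytes. Animals of both types shared the floxed alleles, which included both alleles of Trp53 and 1 allele of Nf1, and a Cre-dependent tdTomato reporter. All were given tamoxifen by mouth as adults aged 6 to 8 weeks, in 1 dose of 10 mg for each 20 g of weight, and were kept until symptomatic. Total RNA came from flash-frozen tumour tissue, so each value covers tumour cells and the host cells within the tumour. In such bulk RNA, fewer cells of a type and less RNA per cell cannot be told apart. The mice were of mixed genetic background, and the labels do not give the MHC haplotype of an animal. There were 7 tumours of each type, 3 Type 1 and 4 Type 2 in batch 1, and 4 Type 1 and 3 Type 2 in batch 2. Between 19299 and 20868 probes were detected per array. The arrays lay on 5 chips, each with tumours of a single type, so chip and type cannot be told apart.

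Class I molecules consist of a heavy chain and beta-2-microglobulin and show peptides from inside the cell to CD8 T cells and natural killer cells. Those peptides are cut by the immunoproteasome, carried into the endoplasmic reticulum by the TAP transporter and loaded with the help of tapasin, calreticulin and the disulphide isomerase ERp57. Class II molecules are pairs of an alpha and a beta chain that show peptides from the endosome to CD4 T cells, and in the brain they are mainly a feature of activated microglia, macrophages and dendritic cells. The invariant chain Cd74 guides them to the endosome, and H2-DM loads them. Interferon gamma induces both classes, class I through Nlrc5 and class II through Ciita, co-activators that work on the W, X and Y boxes of MHC promoters.

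Promoter sequences are shown for 4 of the measured genes, as the 250 bases before the start of transcription in RefSeq (mouse build GRCm38.p6). They are written 5′ to 3′ on the strand of the gene. Of the 37 measured genes, 27 matched the promoter table. The other 10, among them H2-Ab1, Cd74, Ciita and Nlrc5, did not and are left out of the motif counts. Capitals mark the X box core (GCAAC) and the Y box (CCAAT), read on either strand, and, in H2-M3, the interferon gamma activated site core (TTCNNNGAA). H2-Aa, at chr17:34287824-34288073 on the minus strand, encodes a class II alpha chain. H2-Eb1, at chr17:34305617-34305866 on the plus strand, encodes a class II beta chain. H2-M3, at chr17:37269984-37270233 on the plus strand, encodes a non-classical class I heavy chain. Psmb9, at chr17:34187331-34187580 on the minus strand, encodes an immunoproteasome subunit.
H2-Aa: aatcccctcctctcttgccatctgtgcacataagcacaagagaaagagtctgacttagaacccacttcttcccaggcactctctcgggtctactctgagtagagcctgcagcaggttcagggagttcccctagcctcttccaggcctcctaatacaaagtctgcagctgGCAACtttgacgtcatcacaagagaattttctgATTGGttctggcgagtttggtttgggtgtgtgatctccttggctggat
H2-Eb1: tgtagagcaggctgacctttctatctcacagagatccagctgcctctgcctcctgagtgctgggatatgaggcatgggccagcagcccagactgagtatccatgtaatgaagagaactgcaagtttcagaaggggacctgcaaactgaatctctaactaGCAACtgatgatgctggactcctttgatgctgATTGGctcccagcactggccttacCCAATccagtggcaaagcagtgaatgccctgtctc
H2-M3: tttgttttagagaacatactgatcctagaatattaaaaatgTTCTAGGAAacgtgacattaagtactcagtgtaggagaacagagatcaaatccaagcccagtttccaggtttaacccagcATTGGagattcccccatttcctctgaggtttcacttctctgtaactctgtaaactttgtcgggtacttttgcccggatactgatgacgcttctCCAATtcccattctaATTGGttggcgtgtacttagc
Psmb9: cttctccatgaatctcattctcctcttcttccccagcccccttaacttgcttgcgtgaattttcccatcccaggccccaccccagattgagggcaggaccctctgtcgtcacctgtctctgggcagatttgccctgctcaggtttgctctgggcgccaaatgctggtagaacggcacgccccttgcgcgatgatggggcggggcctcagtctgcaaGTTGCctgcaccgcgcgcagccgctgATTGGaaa

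In H2-Aa the X box core lay 81 bases and the Y box 48 bases before the start, and in H2-Eb1 the X box core lay 91 bases and the Y boxes 59 and 35 bases before it. An X box core followed by ATTGG (the Y box on the other strand) within 50 bases, read on either strand, was counted next. It was present for 4 of the 8 class II genes matched, H2-Aa, H2-Eb1, H2-Eb2 and H2-Oa. It was present for 0 of 8 class I heavy chain genes and 0 of 8 class I pathway genes, against 1.75% of 32851 promoters in all. A gene was counted when any of its promoters matched (30 promoters for 27 genes), while the shares of all are of single promoters. This pair and its gap were chosen after the sequences were seen. Taken alone, CCAAT was found for 7 of 8 class II genes, 8 of 8 class I heavy chain genes and 4 of 8 class I pathway genes. It was in 33.8% of all promoters. GCAAC alone was found for 5 of 8, 2 of 8 and 3 of 8 genes of the same sets, and in 29.9% of all promoters. The core of the interferon-stimulated response element (GAAA, any 2 bases, then GAAA) was found on either strand in H2-T23 and B2m, and in 2.98% of all promoters. The letters TTCNNNGAA were found in H2-DMb2, H2-M3 and Psmb8, and in 7.02% of all. A match describes these letters in this window and is not a binding site.

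Of the 37 measured genes, 3 were lower in Type 1 and passed the test, 1 in each of 3 groups. They were the class II beta chain H2-Ab1, the class I heavy chain H2-M3 and the immunoproteasome subunit Psmb9. The test was limma with a term for batch, and p-values were adjusted by Benjamini-Hochberg over all genes tested, with a threshold of 0.05. The 3 genes made up 8.11% of the 37, against 273 of 11786 genes lower in Type 1 (2.32%) and 4.64% called in either direction. The number of measured genes higher in Type 1 was 0, against a background of 2.32% in that direction. At an unadjusted p under 0.05, 10 of the 37 were lower (27%, background 10.9%) and 1 was higher (2.7%, background 10.8%). The fitted difference, Type 1 minus Type 2 in normalized log2 signal, was below 0 for 32 of the 37 genes, against 50.6% of all genes tested, and it was below 0 in both batches for 22 genes (59.5%, background 28.3%). Its median was -0.56 over the 37 genes and -0.01 over all genes. The count of called genes depended on single tumours. It was 8 without Type 1 replicate 3, where 4.2% of all genes were called. It was 1, H2-Ab1, without any one of Type 1 replicates 1, 2, 5 and 7 or Type 2 replicates 2, 5, 6 and 7. In those fits the share of all genes called ran from 1.65% (without Type 1 replicate 2) to 5.42% (without Type 2 replicate 2). With all tumours it was 4.64%. The count was 0 without both tumours highest in choroid plexus genes, Type 1 replicate 1 and Type 2 replicate 5 (mean log2 signal of those genes 10.84 and 8.66, with 6.80 in the next highest tumour). There 0.899% of all genes were called.

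**Figure D1:**
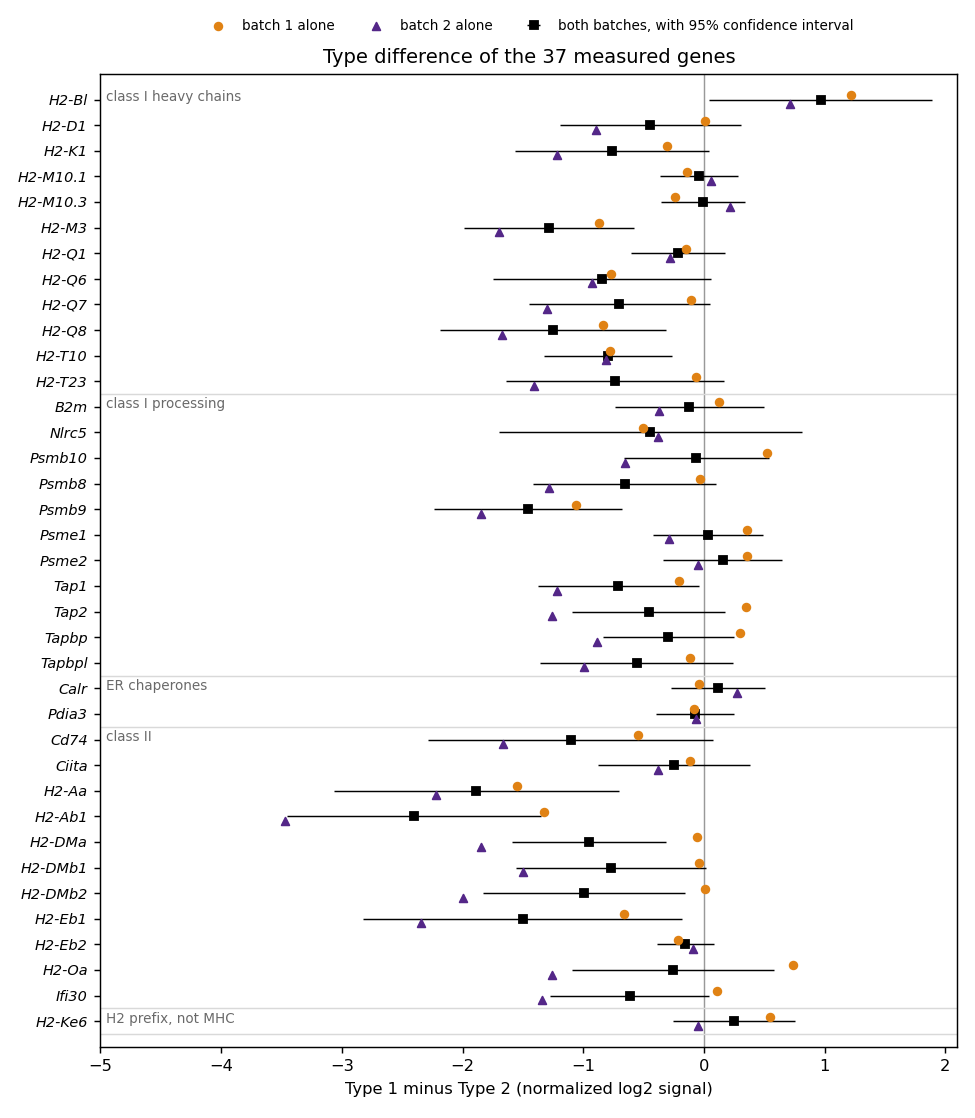
Difference between types of each of the 37 measured genes, as Type 1 minus Type 2 in normalized log2 signal, with the value in both batches and its 95% confidence interval (squares and lines), in batch 1 alone (circles) and in batch 2 alone (triangles). The differences run between -2.40 for H2-Ab1 and 0.97 for H2-Bl, and for class II the batch 2 values lie further below 0 (median -1.67) than the batch 1 values (median -0.11).

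Among the classical class I heavy chains, which present peptides to CD8 T cells, neither H2-K1 nor H2-D1 passed the test. H2-K1 had 7.77, 7.65, 9.85, 8.69, 9.06, 8.93 and 8.70 in Type 1 replicates 1 to 7, against 8.92, 9.88, 8.34, 7.77, 10.09, 10.38 and 9.73 in Type 2 replicates 1 to 7. Type 1 replicates 1 to 3 and Type 2 replicates 1 to 4 are batch 1. In batch 1 the types overlapped widely, while in batch 2 the 4 Type 1 tumours all lay below the 3 Type 2 tumours. The difference was -0.76 ± 0.38 (SE, adjusted p = 0.257). H2-D1 was the heavy chain with the strongest signal, at 12.02, 11.70, 13.47, 12.70, 12.57, 12.31 and 11.39 in Type 1, against 12.60, 13.29, 12.22, 11.45, 13.27, 13.41 and 12.72 in Type 2. Its difference was -0.44 ± 0.35 (SE, adjusted p = 0.501) by the brightest of its 3 detected probes. The other H2-D1 probes gave -1.14 and -1.13 (limma adjusted p over all probes 0.0868 and 0.0407). Those 2 probes lay close together, and the brightest gave a smaller difference. The standard errors were 0.347, 0.362 and 0.290 for the 3 probes in turn, and the gap between probes was not tested. Class I genes are closely related in sequence and variable between strains, and the probes may not separate them.

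H2-M3, a non-classical heavy chain that presents N-formylated peptides of bacterial or mitochondrial origin, was lower in Type 1. It had 6.83, 7.67, 8.42, 8.66, 7.51, 7.63 and 7.04 in Type 1, against 8.41, 9.06, 7.58, 9.0, 9.80, 9.22 and 9.21 in Type 2. The ranges overlapped through Type 1 replicates 2, 3, 4 and 6 and Type 2 replicates 1 and 3, and in batch 2 they did not overlap. The means were 7.68 ± 0.67 and 8.90 ± 0.71 (SD, n = 7 each) in Type 1 and Type 2. The difference of -1.28 ± 0.33 (SE) passed the limma test (adjusted p = 0.0411) and corresponds to a 2.43-fold lower signal in Type 1. The difference was -0.87 in batch 1 and -1.70 in batch 2. The call held without any single one of Type 1 replicates 3 and 4 and Type 2 replicates 1 and 3, and was lost without any one of the other 10 tumours, with an adjusted p of up to 0.0927.

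The other non-classical heavy chains did not pass the test. Of the Qa genes, H2-Q8 had the largest difference, -1.25 ± 0.44 (SE, adjusted p = 0.117), with 6.30 to 8.24 in Type 1 against 6.96 to 9.89 in Type 2. A second H2-Q8 probe gave -0.52. H2-Q6 differed by -0.85, H2-Q7, a Qa-2 gene, by -0.70 and H2-Q1 by -0.22. H2-T23, which encodes Qa-1, the ligand of the inhibitory natural killer receptor CD94/NKG2A, had a median of 9.74 in Type 1 (9.16 to 11.73), against 11.27 in Type 2 (9.78 to 11.59), with a difference of -0.73. H2-T10, listed as a transcribed pseudogene in the RefSeq gene table, differed by -0.79 (adjusted p = 0.0776), while its other probes gave -0.20 and 0.18. H2-M10.1 and H2-M10.3, of a family known from the vomeronasal organ, lay near background at means of 5.25 to 5.66 and differed by -0.04 and -0.01.

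H2-Bl, also listed as a transcribed pseudogene, was the heavy chain gene with a difference above 0, at 0.97 ± 0.43 (SE, adjusted p = 0.210). It had 5.25, 6.63, 6.21, 5.71, 7.81, 6.54 and 5.37 in Type 1, against 4.59, 4.96, 4.60, 5.09, 5.17, 7.21 and 4.56 in Type 2. It was detected on 5 Type 1 arrays and on 1 Type 2 array, that of Type 2 replicate 6. It passed the detection filter only through the Type 1 tumours, where it was higher, and 6 of the 7 Type 2 values are at background, so the size of the difference is a description.

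**Figure D2:**
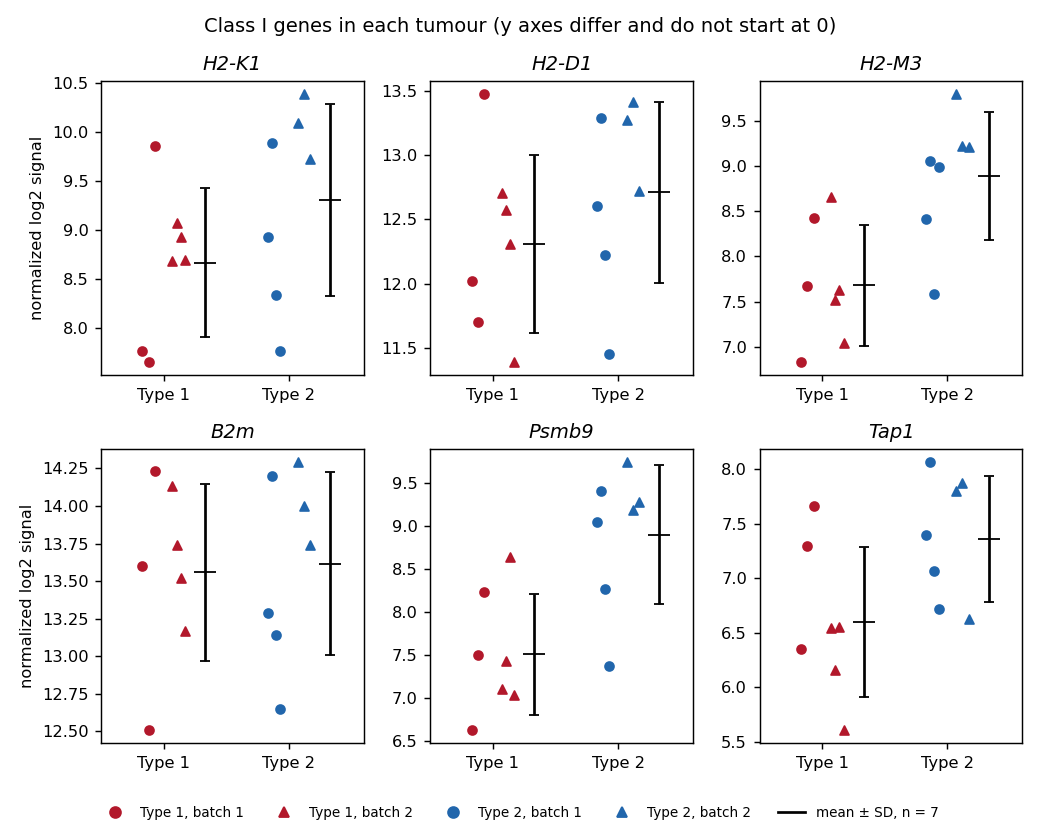
Normalized log2 signal of 6 class I genes in each tumour, with Type 1 left of Type 2, circles for batch 1, triangles for batch 2, and the mean ± SD of 7 tumours as bars. In batch 2 the triangles of the 2 types do not overlap for H2-K1, H2-D1, H2-M3, Psmb9 and Tap1, and they overlap for B2m (difference in batch 2 of -0.37). The gap in batch 2 is narrow for H2-D1 (12.70 in Type 1 against 12.72 in Type 2) and Tap1 (6.554 against 6.625).

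B2m, the light chain shared by all class I molecules, was close between the types. It had 13.60, 12.51, 14.23, 14.13, 13.74, 13.52 and 13.17 in Type 1, against 13.29, 14.20, 13.14, 12.65, 14.29, 14 and 13.74 in Type 2. Low tumours were found in both types, Type 1 replicate 2 and Type 2 replicate 4. The difference was -0.12 ± 0.29 (SE, 95% confidence interval -0.74 to 0.49, adjusted p = 0.852).

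Psmb9, the immunoproteasome subunit also called LMP2, was lower in Type 1. It had 6.63, 7.51, 8.24, 7.11, 7.43, 8.63 and 7.03 in Type 1, against 9.05, 9.40, 8.26, 7.38, 9.74, 9.19 and 9.28 in Type 2. Type 2 replicates 3 and 4 lay within the range of Type 1, and in batch 2 the types did not overlap. The means were 7.51 ± 0.70 and 8.90 ± 0.81 (SD, n = 7 each) in Type 1 and Type 2, and the difference was -1.46 ± 0.36 (SE, limma adjusted p = 0.0393), or 2.74-fold lower in Type 1. It was -1.06 in batch 1 and -1.85 in batch 2. The call held when any single one of Type 1 replicates 3 and 6 and Type 2 replicate 4 was left out, and was lost without any one of the other 11 tumours, with an adjusted p of up to 0.0852.

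The other genes of the class I pathway did not pass. The remaining catalytic immunoproteasome subunits differed by -0.66 for Psmb8 and -0.07 for Psmb10. The proteasome activator subunits Psme1 and Psme2 differed by 0.03 and 0.16. For the transporter chain Tap1 the values were 6.35, 7.30, 7.66, 6.54, 6.16, 6.55 and 5.61 in Type 1, against 7.39, 8.06, 7.07, 6.71, 7.80, 7.87 and 6.63 in Type 2, and the difference was -0.71 ± 0.31 (SE, adjusted p = 0.202). Its partner Tap2 differed by -0.46, tapasin (Tapbp) by -0.29 and the tapasin-related Tapbpl by -0.56. Nlrc5, the co-activator of class I genes, had 5.71, 6.14, 8.15, 7.52, 7.07, 7.76 and 5.05 in Type 1, against 8.29, 8.70, 6.66, 5.04, 7.65, 7.08 and 6.97 in Type 2. Its spread within each type (SD 1.16 in Type 1 and 1.20 in Type 2) was wider than the difference of -0.44 ± 0.59 (SE, adjusted p = 0.713). The chaperones differed by 0.12 for calreticulin (Calr) and -0.07 for Pdia3, which encodes ERp57. H2-Ke6 differed by 0.25. The constitutive proteasome and MHC-like genes had 10 measured of 11 listed, with a median difference of -0.17 and 0 called by limma in either direction.

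Class II was the group with the lowest median difference, -0.95 over 11 genes, against -0.72 over 12 class I heavy chain genes and -0.44 over 11 class I pathway genes, a difference between groups that was not tested. All 11 class II genes measured had a difference below 0, against 50.6% of all genes tested. H2-Ea, detected in 2 Type 1 tumours and in no Type 2 tumour, was not among the 11. Of the 11, H2-Oa, H2-Eb2 and Ciita were detected on only 5, 4 and 4 arrays and differed by -0.26, -0.15 and -0.25. None of these would have passed the detection filter without the Type 2 tumours, where their means were higher. H2-Ab1, the beta chain of the I-A molecule, had 8.22, 9.47, 9.79, 6.10, 6.94, 9.24 and 6.83 in Type 1, against 10.94, 10.41, 10.00, 10.61, 11.11, 10.51 and 10.63 in Type 2. Every Type 1 tumour lay below every Type 2 tumour, which held for 1 of the 37 genes (2.7%, background 0.602%), and the opposite for 0 (background 0.628%). The Type 2 tumours lay close together, at 10.60 ± 0.36, while the Type 1 tumours were spread out, at 8.08 ± 1.47 (SD, n = 7 each). The difference was -2.40 ± 0.49 (SE, limma adjusted p = 0.0172), or 5.28-fold lower in Type 1. The other H2-Ab1 probes gave -2.25 and -2.02, each past the test over all probes (adjusted p = 0.0301 and 0.0181). The difference was -1.33 in batch 1 (adjusted p = 0.133) and -3.47 in batch 2 (adjusted p = 0.0512). The call held without each single tumour, and without both Type 1 replicate 1 and Type 2 replicate 5 the value was -2.08 (adjusted p = 0.0917).

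H2-Aa, which encodes the alpha chain that pairs with H2-Ab1, did not pass at -1.89 ± 0.55 (SE, adjusted p = 0.0634). It had 5.16, 5.44, 6.65, 4.65, 5.64, 8.03 and 4.91 in Type 1, against 8.63, 7.55, 7.65, 5.37, 8.04, 7.70 and 8.35 in Type 2. It was detected in 4 of 7 Type 1 and 6 of 7 Type 2 tumours. Type 2 replicate 4 stood far below the other Type 2 tumours and Type 1 replicate 6 above the other Type 1 tumours. It passed without Type 1 replicate 6 (-2.21, adjusted p = 0.0252) or Type 2 replicate 4 (-2.21, adjusted p = 0.0280), and did not pass without any one of the other 12 tumours, with an adjusted p of up to 0.125. In Type 2 replicate 4, H2-Aa was not detected while H2-Ab1, at 10.61, was the fourth lowest of the 7.

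H2-Eb1, the beta chain of the I-E molecule, had 7.93, 8.00, 9.75, 5.01, 6.75, 8.72 and 5.72 in Type 1, against 10.39, 9.75, 9.46, 7.26, 9.10, 8.32 and 9.26 in Type 2. The ranges overlapped, and the difference was -1.50 ± 0.62 (SE, adjusted p = 0.173). H2-Ea, the alpha chain of I-E, was detected in 2 tumours, Type 1 replicates 1 and 3, at 6.04 and 7.54, and was not tested. H2-Eb2, a second beta chain gene, lay near background at 5.12 ± 0.27 in Type 1 and 5.22 ± 0.18 in Type 2 (SD, n = 7 each).

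Cd74, the invariant chain, had 8.82, 7.97, 10.41, 6.45, 7.77, 9.03 and 6.74 in Type 1, against 10.99, 9.80, 10.09, 7.58, 9.06, 9.05 and 9.38 in Type 2. Type 1 replicate 3 ranked among the high Type 2 tumours, and Type 2 replicate 4 among the low Type 1 tumours. The difference was -1.11 ± 0.55 (SE, adjusted p = 0.260). Ciita, the class II co-activator, was detected on 4 arrays, 2 of each type. It had 5.43, 5.63, 5.27, 4.51, 4.53, 4.61 and 4.44 in Type 1, against 5.59, 7.01, 5.02, 4.59, 5.34, 4.56 and 4.81 in Type 2, and differed by -0.25 (adjusted p = 0.683). Most of these Ciita values are at background, and their order has no meaning there.

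The loading factors H2-DMa, H2-DMb1 and H2-DMb2, which exchange the invariant chain peptide for antigen, differed by -0.95, -0.77 and -0.99 (adjusted p = 0.0797, 0.241 and 0.155). H2-DMa had 7.73, 8.38, 8.96, 7.40, 7.53, 7.77 and 7.72 in Type 1, against 8.55, 8.68, 8.21, 8.22, 9.65, 9.12 and 9.59 in Type 2. H2-DMb2 had 7.68, 7.36, 9.07, 6.21, 7.27, 7.14 and 6.09 in Type 1, against 8.55, 8.12, 7.96, 7.48, 8.98, 8.72 and 8.32 in Type 2. For both genes the types overlapped in batch 1 and were apart in batch 2. H2-Oa, a chain of the H2-DO molecule that restrains H2-DM, differed by -0.26, and the lysosomal thiol reductase Ifi30 by -0.62. H2-Ob, the partner of H2-Oa, was detected on 2 arrays and was not tested.

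**Figure D3:**
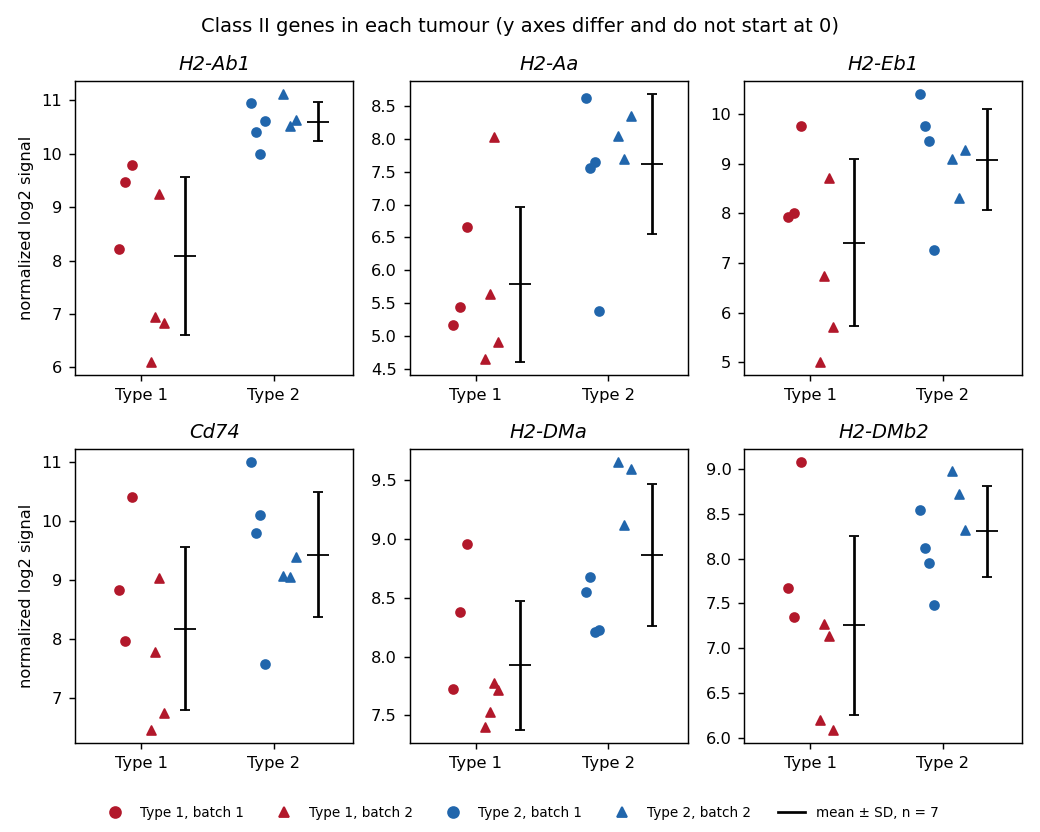
Normalized log2 signal of 6 class II genes in each tumour, with Type 1 left of Type 2, circles for batch 1, triangles for batch 2, and the mean ± SD of 7 tumours as bars. For H2-Ab1 all Type 1 points lie below all Type 2 points, and for H2-DMa and H2-DMb2 the points overlap in batch 1 and are apart in batch 2.

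The differences between types lay further below 0 in batch 2 than in batch 1. In batch 2 the median difference was -1.67 over the class II genes, -0.91 over the class I heavy chains and -0.89 over the class I pathway, against -0.004 over all genes tested, and it was below 0 for 33 of the 37 genes (89.2%, background 50.4%). In batch 1 it was -0.11, -0.19 and 0.13 over the same groups, against -0.02 over all genes. Within batch 2 every Type 1 tumour lay below every Type 2 tumour for 19 of the 37 genes (51.4%, background 9.36%). These were 8 of the 11 class II genes, 7 of the 11 class I pathway genes and 4 of the 12 class I heavy chain genes. For some of the 19 the gap was narrow, as for Cd74 (9.031 in Type 1 against 9.052 in Type 2) and H2-D1 (12.70 against 12.72). Of the class II genes among them, H2-Oa and H2-Eb2 passed the detection filter only through the 3 Type 2 tumours of batch 2. Among genes that passed it on the other arrays, in a filter chosen after seeing the data, the count was 17 of 35 (48.6%, against 9.22% of 11410 genes) and 6 of 9 for class II. Within batch 1 that held for 1 gene, H2-Ab1 (2.7%, background 8.88%), and the opposite held for H2-Bl alone (2.7%, background 9.75%), which was detected in 0 of the 4 Type 2 tumours there.

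Tested in batch 2 alone, H2-DMa (difference -1.85, adjusted p = 0.0145) and H2-DMb2 (difference -2.0, adjusted p = 0.0452) were lower in Type 1, which made 2 of 37 genes (5.41%, against a background of 0.73% lower in Type 1 and 1.04% in either direction). In batch 1 alone 0 of 37 were called (background 1.41%), and 1 was lower and 1 higher at an unadjusted p under 0.05. The test of the difference itself, the interaction of type and batch, called 0 of 37 genes in limma, as it did 0 of all genes. Its lowest adjusted p among them was 0.0886, for H2-DMa. At an unadjusted p under 0.05 the interaction picked 9 of 37 genes (24.3%, background 16.4%), all with a more negative difference in batch 2 (background 8.97% that way). They were the class II genes H2-Ab1, H2-DMa, H2-DMb1, H2-DMb2, H2-Oa and Ifi30 and the class I pathway genes Psmb10, Tap2 and Tapbp, and 0 of the 12 heavy chains were among them. H2-Oa passed the detection filter only through the Type 2 tumours of batch 2, where it was higher, so its place among them is a description. A larger difference in batch 2 is therefore a description of these tumours and did not pass its own test.

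Between the batches themselves, 2 of 37 genes were called, both higher in batch 2 (5.41%, background 6.25%), and 0 were lower (background 4.42%). Psme2, the beta subunit of the proteasome activator, had 9.21, 9.51, 9.41, 9.17, 9.91, 10.18 and 10.51 in Type 1, against 8.19, 9.24, 9.28, 9.35, 9.91, 10.08 and 9.98 in Type 2. In each type the 3 highest values were of batch 2, while Type 1 replicate 4, also of batch 2, had the lowest value of Type 1, and the batch term was 0.77 (adjusted p = 0.0445). H2-Eb2 had 4.80, 4.72, 5.07, 5.37, 5.35, 5.34 and 5.18 in Type 1, against 5.04, 5.07, 5.10, 5.10, 5.38, 5.41 and 5.41 in Type 2. All these values were near background, and the batch term was 0.39 (adjusted p = 0.0398). H2-Eb2 was detected on 4 arrays, all of batch 2, so it passed the detection filter only through the batch in which it was higher, and its call is a description. Neither call was made with the values processed by the authors.

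Each tumour was summarised by the median, over the genes of a group, of the deviation from the batch mean. For class II this deviation had a median of -0.44 in Type 1 (-1.15 to 0.57, 6 of 7 tumours below 0), against 0.52 in Type 2 (-0.55 to 1.25, 1 of 7 below 0). For the class I heavy chains it had a median of -0.40 in Type 1 (-0.75 to 0.37, 6 of 7 below 0), against 0.25 in Type 2 (-0.32 to 0.93, 2 of 7 below 0). For the class I pathway the medians were -0.20 in Type 1 (-0.63 to 0.45) and -0.01 in Type 2 (-0.58 to 0.83). Type 1 replicate 3 was the Type 1 tumour above 0 in both classes and was the highest Type 1 tumour in 8 of 11 class II genes. Type 2 replicate 4 was below 0 in both classes and was the lowest Type 2 tumour in 6 of 11 class II genes, while Type 2 replicate 3 was below 0 in class I alone. Class II lay further below the batch mean than class I in Type 1 replicates 2, 4, 5 and 7 and in Type 2 replicate 4, and further above it in Type 1 replicate 3 and Type 2 replicates 1, 5 and 7. Type 2 replicate 2 had a class I deviation of 0.93 and a class II deviation of 0.29.

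**Figure D4:**
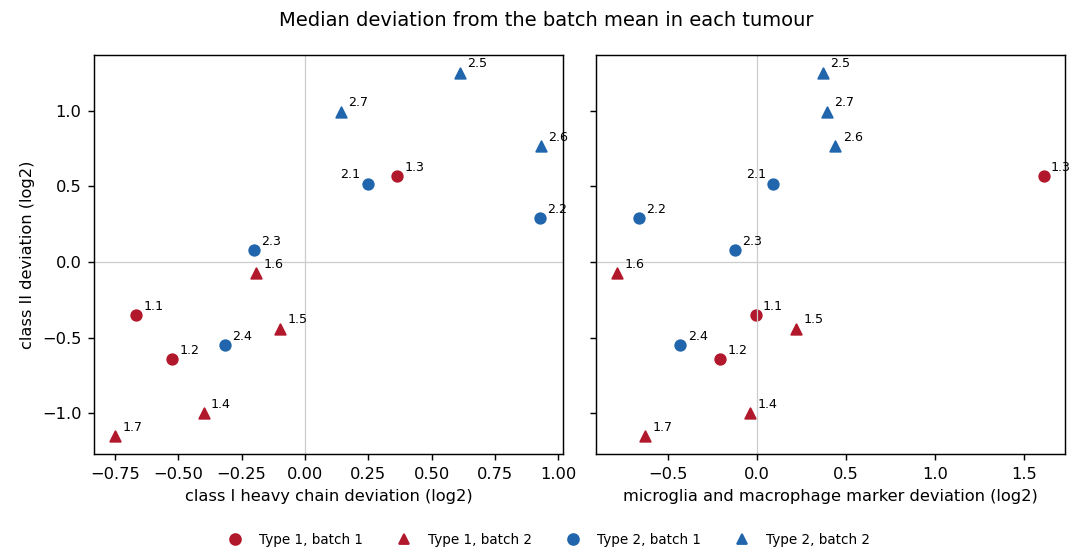
Median deviation from the batch mean, in log2 signal, of the class II genes in each tumour against that of the class I heavy chains (left) and of the microglia and macrophage markers (right), with each point labelled by type and replicate. Most Type 1 tumours lie at the lower left and most Type 2 tumours at the upper right of the left panel, while Type 1 replicate 3 stands at 1.61 on the marker axis, apart from all others.

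Across the 14 tumours, 8 pairs of genes were correlated, with permutation p-values from 100000 resamples, two-sided and adjusted over the 8 pairs. These p-values took no account of type or batch, so they also cover differences between types or batches that both genes share. H2-Aa was detected on 10 of the 14 arrays, so its lowest values are at background. H2-Aa and Cd74 were correlated at r = 0.807 (adjusted p = 0.00304, permutation) and rho = 0.767 (adjusted p = 0.00394, permutation), with r = 0.698 without the 2 tumours farthest from the median. Within batches 1 and 2, r was 0.872 and 0.986. B2m and H2-K1 were correlated at r = 0.802 (adjusted p = 0.00304, permutation) and rho = 0.805 (adjusted p = 0.00394, permutation), with 0.668 without the 2 farthest tumours and 0.853 and 0.553 within batches 1 and 2. The corresponding r and rho were 0.716 and 0.758 for Tap1 and Psmb9 (adjusted p = 0.00666 and 0.00394, permutation; 0.627 without the 2 farthest) and 0.736 and 0.776 for Psmb8 and Psmb9 (adjusted p = 0.00666 and 0.00394, permutation; 0.618 without the 2 farthest). Within batches 1 and 2, r was 0.866 and 0.806 for Tap1 and Psmb9, and 0.487 and 0.893 for Psmb8 and Psmb9.

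Nlrc5 and its target H2-K1 had r = 0.661 and rho = 0.653 (adjusted p = 0.0145 and 0.0199, permutation), with r = 0.638 without the 2 farthest tumours and 0.919 and 0.30 within batches 1 and 2. Ciita and Cd74 had r = 0.515 and rho = 0.631 (adjusted p = 0.0639 and 0.0199, permutation), with r = 0.745 without the 2 farthest tumours and 0.289 and 0.563 within batches 1 and 2. Since Ciita was detected on 4 of the 14 arrays, no relation is read from that pair. H2-Ab1 and Cd74 had r = 0.727 and rho = 0.640 (adjusted p = 0.00666 and 0.0199, permutation). Without Type 1 replicates 4 and 7 that r was 0.445, so it rested in part on those tumours. It was 0.845 within Type 1 and -0.05 within Type 2, and 0.301 and 0.936 within batches 1 and 2. Between the classes, Cd74 and B2m had r = 0.224 and rho = 0.257 (adjusted p = 0.439 and 0.372, permutation), with 0.397 without the 2 farthest tumours and 0.633 and 0.237 within batches 1 and 2. On residuals of type and batch, r was 0.934 for H2-Aa and Cd74, 0.812 for B2m and H2-K1, 0.753 for Tap1 and Psmb9, 0.659 for Psmb8 and Psmb9, 0.732 for Nlrc5 and H2-K1, 0.567 for H2-Ab1 and Cd74, 0.485 for Cd74 and B2m, and 0.273 for Ciita and Cd74.

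Markers of the cells that carry MHC molecules were measured beside these genes. Of 18 microglia and macrophage markers, 13 were measured, 0 were called by limma, and the median difference was 0.02, with 0.80 in batch 1 and -0.80 in batch 2. Their summed signal on the linear scale was 13222 to 50682 in Type 1, against 11577 to 32809 in Type 2. Within batch 2 it was 13222 to 28354 in Type 1 against 31058 to 32809 in Type 2, and within batch 1 it was 16180 to 50682 in Type 1 against 11577 to 20467 in Type 2. Among the markers on the array, P2ry12 and Ptprc were not detected. With the mean of the measured markers as a covariate, the difference was -2.37 for H2-Ab1 (adjusted p = 0.0161), -1.26 for H2-M3 (adjusted p = 0.0349) and -1.43 for Psmb9 (adjusted p = 0.0360). H2-DMa and H2-DMb2 passed as well in that fit, at -0.91 and -0.93 (adjusted p = 0.0413 and 0.0439). Over all genes, 5.82% were called in that fit, against 4.64% without the covariate.

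Few markers of other antigen presenting cells and of lymphocytes were detected. For monocytes and dendritic cells 4 of 12 were measured, with a sum of 231 to 814 in Type 1 against 217 to 620 in Type 2 and 0 called by limma, and Itgax, Flt3, Clec9a, Xcr1, Cd209a, Ccr2 and Clec10a were not detected. For T and natural killer cells 2 of 11 were measured, with a sum of 57 to 126 in Type 1 against 57 to 83 in Type 2, and Cd3g, Cd3d, Cd4 and Cd8a were not detected. Some endothelial and astrocyte markers differed by type. Of 8 endothelial markers measured, Tie1 (-0.87) and Vwf (-1.78) were called lower in Type 1 (background 2.32%). Kdr (0.06) and Tek (-0.09) differed little. The endothelial sum was 2194 to 5676 in Type 1 against 5697 to 9486 in Type 2. Of 6 astrocyte markers measured, Aqp4 (2.12) and Slc1a2 (2.03) were called higher in Type 1 (background 2.32%). The median astrocyte difference was 1.38 (1.38 in batch 1 and 1.14 in batch 2). The astrocyte sum was 32855 to 81662 in Type 1 against 17244 to 32470 in Type 2. For neither list did the sums of the types overlap, though the endothelial sums came close, at 5676 against 5697. Such sums rest mostly on the brightest genes of a list, and no background for sums was computed. The part of these endothelial and astrocyte values in the MHC values was not tested. For B cells 1 of 6 markers was measured and 0 were called by limma, and of 8 choroid plexus genes 5 were measured and 0 were called, with a sum of 193 to 28578 in Type 1 against 155 to 14477 in Type 2. The glioma markers Olig2, Sox2, Nes and Gfap were all measured, and 0 of these 4 were called by limma.

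The interferon pathway was counted in the same way. Of 20 interferon-stimulated genes, 14 were measured and 0 were called by limma, with a median difference of -0.24 (0.12 in batch 1 and -0.72 in batch 2) and a sum of 10662 to 27389 in Type 1 against 5942 to 47609 in Type 2. Of 20 genes of interferon signalling and MHC promoter factors, 16 were measured and 0 were called, with a median of -0.19, and neither Ifng nor the X box factor Rfx5 was detected. Irf8, a factor of the myeloid lineage, had the lowest p among them (-0.95, adjusted p = 0.0667), and Irf1, an early interferon gamma target, differed by -0.73 (adjusted p = 0.195). Of 10 genes of class II antigen processing and costimulation, 8 were measured and 0 were called, with a median of -0.31 (0.11 in batch 1 and -0.72 in batch 2). The lysosomal protease Ctss, which cuts the invariant chain, differed by -0.34 (limma adjusted p = 0.5). The costimulatory receptor Cd40 differed by -0.47 (limma adjusted p = 0.306). Irf8, Irf1, Ctss and Cd40 were named after their values were seen, and all 4 lay below 0. Above 0 lay Jak1 (0.29), Rfxank (0.41), Creb1 (0.30), Nfyb (0.19) and Nfyc (0.01) of the signalling and promoter factors. Of the class II processing and costimulation genes, Ctsl (0.24) lay above 0.

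Most of these genes lie together on chromosome 17, and the genes there outside the set described here were compared as neighbours. They were not screened for function and include Aif1, which is among the microglia and macrophage markers. Between H2-K1 and H2-M3 in the RefSeq gene table, 82 other genes were tested, of which 4 were lower in Type 1 (4.88%, background 2.32%) and 0 were higher. Their median difference was -0.11, against -0.75 for the 20 measured genes with the H2 prefix in the same stretch, which include H2-Ke6 but not H2-Q8, which that table does not place there. The called neighbours were the complement genes C4b (-1.27 ± 0.209, adjusted p = 0.00695) and C4a (-1.27 ± 0.215, adjusted p = 0.00782), Egfl8 (-1.07 ± 0.262, adjusted p = 0.0357) and Abhd16a (-0.77 ± 0.175, adjusted p = 0.0272), each with its SE. C4a and C4b are near-identical copies, and their probes may not separate them. C4b differed by -1.08 in batch 1 and by -1.46 in batch 2, so its difference was present in both batches.

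Of the 53 genes on the array, 16 had no probe past the detection filter and are described by detection only. They were Canx, the chaperone calnexin, and Erap1, a peptide-trimming protease, the class II genes H2-Ea and H2-Ob, and the class I genes H2-M1, H2-M5, H2-M9, H2-M10.2, H2-M10.4, H2-M10.5, H2-M10.6, H2-M11, H2-Q2, H2-Q10, H2-T3 and H2-T18. H2-M9 was detected on 1 array, and 13 of the 16 were detected on 0 arrays. A probe that is not detected gives no level for its gene.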

How the data were processed

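The deposited table of raw values gave, per the file headers, 2 columns for each of the 14 arrays, the mean signal intensity of a probe's beads and its detection p-value, over 45281 probes, with no normalization by the authors. The submitters' processing notes name BeadStudio without a version. Log2 values processed by the authors, by a method the sources used here do not give, were deposited as well and served as an alternative.

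In limma 3.58.1 (function neqc, R 4.3.3), background was estimated from the detection p-values, 16 was added as offset, and arrays were quantile-normalized on the log2 scale. Probes with 1 gene symbol in the platform annotation (32034) and a detection p under 0.05 on at least 3 arrays (18430) were kept, and the probe with the highest mean stood for its gene. Types were compared with lmFit and eBayes with a batch term, and p-values were adjusted over 11786 genes by Benjamini-Hochberg. The interaction and the batch term were tested likewise. The number of arrays limits precision, and p-values reflect only the spread among these tumours. Every measured gene was named. Values in every tumour are given for called genes and for main genes of each class. The genes, lists, tests and alternatives were chosen with earlier results of these data known. The model was tested on simulated data. Alternatives covered the batch term, chip, single batches, background correction, scaling, filters, probes, a marker covariate and left-out tumours. Replicates were numbered in accession order. A part of the genotype is not reported here.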

Additional observations from a re-analysis of the deposited data

Results flagged for a closer look

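In groups of 7 tumours, a value was picked out when its gap to the nearest other tumour, divided by the range of the group, passed Dixon's 95% critical value. Chance picks out about 1 in 20 groups, and 4 of 74 groups were picked out here. H2-Aa in Type 2 replicate 4 was at 5.373, below 7.55 to 8.63 in the other Type 2 tumours. Ciita in Type 2 replicate 2 was at 7.014, above 4.56 to 5.59 in the other Type 2 tumours. H2-Bl in Type 2 replicate 6 was at 7.208, above 4.56 to 5.17 in the other Type 2 tumours. H2-Oa in Type 1 replicate 3 was at 7.076, above 4.76 to 5.60 in the other Type 1 tumours.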

How the results depend on the processing

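The 3 calls between types held with chip as a random block (consensus correlation 0.0149), no background correction, median scaling and the values processed by the authors. They also held with a filter of 7 or more arrays and with the mean of a gene's probes. All 3 genes were detected on 14 arrays, so the stricter filter could not change their differences. H2-M3 and Psmb9 each had 1 detected probe, so the mean of probes could not change theirs. Each chip held a single type, so the chip block could not separate chip from type. The count of calls was 1 without a batch term (3.53% of all genes called, against 4.64% in the main fit) and 1 without a detection filter (2.17%). It was 0 in batch 1 alone (1.41%), 5 with the marker covariate (5.82%) and 0 without the 2 tumours richest in choroid plexus genes (0.899%). Without each tumour in turn it was 1 to 8, with 1.65% to 5.42% of all genes called. H2-M3 and Psmb9 lost their calls without a batch term (adjusted p = 0.0590 and 0.0501) and without a detection filter (0.0726 and 0.0675), and without the 2 choroid-rich tumours differed by -0.98 and -1.17 (adjusted p = 0.195 and 0.175). Interaction calls numbered 0 under every alternative run. Calls between batches, 2 in all, were 1 with the chip block, 7 with median scaling, 0 with the authors' values, 1 without a detection filter, 1 with the stricter filter, 1 with the marker covariate, 0 without the choroid-rich tumours, and 0 to 3 without each tumour. In batch 1 alone the median difference was -0.19 for class I, -0.11 for class II and 0.13, turned in sign, for the class I pathway, and in batch 2 it was -1.67 for class II. Without each tumour the medians were -0.96 to -0.57, -1.20 to -0.80 and -0.67 to -0.27 for class I, class II and the class I pathway, the last at -0.27 without Type 1 replicate 7. The cause was not tested. No paired analysis was possible because replicate numbers were given in accession order and pair nothing. Genes near background, such as Ciita and H2-Eb2, are limited by signal.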
